A study of Homo sapiens with 4 samples.

Results

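DDA1 and 6 of its partners in CUL4 ubiquitin ligases (DDB1, DDB2, CUL4A, CUL4B, RBX1 and DET1) were followed in the human neuroblastoma line SK-N-SH, with and without overexpression of the long non-coding RNA AP1AR-DT. The 7 genes were found by their symbols among the 24014 genes of the count table, and each had 1 row. DDA1 was chosen by its measured difference between these same groups, so its values are given as a description with no test. The 6 partners were chosen because their products belong to the same complexes and not by their own values, though earlier results of these data were known by then.

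CUL4 ubiquitin ligases are modular enzymes that mark proteins with ubiquitin. A cullin scaffold, CUL4A or CUL4B, holds the RING protein RBX1, which brings in the ubiquitin-conjugating enzyme, and the adaptor DDB1, which docks exchangeable substrate receptors. DDA1 (DET1 and DDB1 associated 1) is a small protein that binds DDB1, DDB2 is the receptor that recognises ultraviolet-damaged DNA, and DET1 links the adaptor to the COP1 ubiquitin ligase. In the nervous system CUL4B is best known as a gene of X-linked intellectual disability.

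The 2 control libraries came from SK-N-SH cells titled WT, with a wild type genotype label, whose treatment label gives an empty lentiviral vector, and the 2 AP1AR-DT_OE libraries from cells given the lentivirus carrying AP1AR-DT, which the labels call AC109347.1 and the count table RP11-73K9.2. The construct was a full-length cDNA in a pCDH vector with a puromycin marker. AP1AR-DT_OE 2 is labelled AC109347.2 under genotype and treatment, but its title, which names AC109347.1, was followed. No label says that libraries of a group came from separate cultures, so p-values measure only the spread between these libraries, which may be technical.

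The libraries held 21988065 to 26184599 counts. AP1AR-DT had 3 and 18 counts in controls 1 and 2 and 680 and 1065 counts in AP1AR-DT_OE 1 and 2, on the side its labels give. Of 8 adrenergic neuroblast markers, 7 were measured and none of these was at 0. The other, TH, was not found by its symbol, so its level is not known. All 7 mesenchymal markers were detected. Libraries numbered 2 held more of the AT-rich transcripts: among 4668 genes with a transcript GC content under 45%, the median log2 ratio of library 2 to library 1 was 1.02 in the controls and 0.64 in AP1AR-DT_OE, and among 4068 genes over 55% it was -0.73 and -0.34. This difference between libraries bears on CUL4A, CUL4B, RBX1 and DET1, whose longest transcripts have a GC content between 38.5% and 42.9%. It also bears on DDA1, which at 58.9% lies in the class over 55%. Values with a correction for GC content are given beside each of these members.

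DDA1 RNA was several-fold higher in both AP1AR-DT_OE libraries than in either control, while its binding partner DDB1 and the receptors DDB2 and DET1 stayed within 0.1 of 0 on the log2 scale between group means. No partner was called, and the cullin CUL4A differed between the controls themselves by more than any other partner with counts in every library. The ratio of DDA1 to DDB1, compared per longest transcript, went from under 0.2 in the controls to just over 1 in AP1AR-DT_OE. The fold between groups does not depend on the length taken, but the ratio itself does, and so does whether it reaches 1.

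DDA1 (ENSG00000130311, chr19:17309518-17323298 on GRCh38, as for all positions here, plus strand) had 830 counts in control 1, 506 in control 2, 4811 in AP1AR-DT_OE 1 and 3994 in AP1AR-DT_OE 2. Both AP1AR-DT_OE libraries lay far above both controls. Normalized read counts, which are counts divided by DESeq2's size factor for the library, were 945.3, 390.3, 5277 and 3964 in the same order. The group means were 668 ± 392 in control against 4621 ± 928 in AP1AR-DT_OE (SD, n = 2), which gave a Log2FC of 2.79 with an SE of 0.52, or 6.93-fold. Between libraries of the same number the ratio was 5.58-fold for number 1 and 10.2-fold for number 2. The controls differed from each other more than the AP1AR-DT_OE libraries did: the log2 ratio of library 2 to library 1 was -1.28 in control and -0.41 in AP1AR-DT_OE. With the GC correction the controls lay closer together, at 763.1 and 512.4, against 4687 and 4403 in AP1AR-DT_OE, and the Log2FC was 2.83. Leaving out control 1 gave a Log2FC of 3.57, and leaving out control 2 gave 2.30.

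Of the 24014 genes, 33 (0.137%) passed an adjusted p under 0.05 in DESeq2 and are referred to as called, 20 higher and 13 lower in AP1AR-DT_OE. DDA1 was 1 of them, and since this contrast chose it, nothing is read from that. The count of calls depended on the test and the libraries: the edgeR quasi-likelihood test called 0 genes, DDA1 included, with 112 at an unadjusted p under 0.05, and DESeq2 called 45 to 90 with 1 library left out. Among the 16 called higher with a mean of at least 50 normalized counts, DDA1 ranked 12 by Log2FC.

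**Figure D1:**
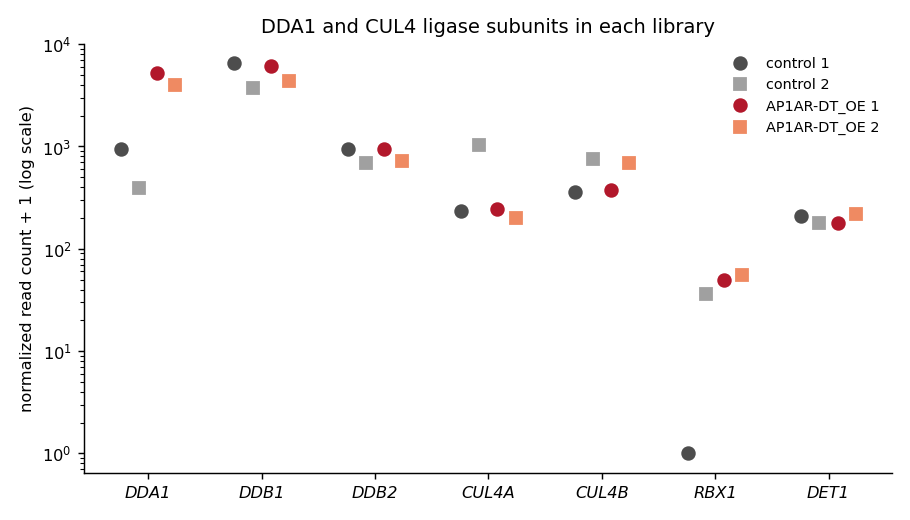
Normalized read count plus 1 (log axis) of DDA1 and its 6 partners in the 2 control libraries (grey) and the 2 AP1AR-DT_OE libraries (red and orange), 1 point per library, circles for number 1 and squares for number 2. DDA1 lies at 390.3 and 945.3 in the controls against 3964 and 5277 in AP1AR-DT_OE, CUL4A is high in control 2 alone, and RBX1 has no count in control 1.

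None of the 6 partners was called in DESeq2 (adjusted p = 1 for each), beside the 0.137% called over all genes. At an unadjusted p under 0.05, 1 of the 6, CUL4A, passed, beside 196 of all genes (0.816%). The edgeR quasi-likelihood test called none of the 6 and passed none at an unadjusted p under 0.05. The values of 4 partners lay within 0.1 of 0 in Log2FC, near the median of all genes of -0.031. Of the 6 members with a mean of at least 50 normalized counts, 1 had AP1AR-DT_OE libraries on 1 side of both controls, and this was DDA1 itself. Over all 13298 genes with such a mean, 1257 (9.45%) had groups that did not overlap in this way.

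DDB1 (ENSG00000167986, chr11:61299451-61342596, minus strand), the adaptor that DDA1 binds, had 5683 and 4821 counts in controls 1 and 2 and 5567 and 4405 in AP1AR-DT_OE 1 and 2. The groups overlapped, with library 1 above library 2 in each. Normalized means were 5096 ± 1947 in control against 5239 ± 1226 in AP1AR-DT_OE (SD, n = 2). The Log2FC was 0.04 with an SE of 0.47 and a 95% interval from -0.89 to 0.97 (DESeq2 adjusted p = 1). The log2 ratio of control 2 to control 1 was itself -0.80, and a change of DDB1 of nearly 1 in either direction was not detectable here. The Log2FC was -0.29 without control 2 and -0.23 without AP1AR-DT_OE 1.

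DDB2 (ENSG00000134574, chr11:47214465-47239217, plus strand), the receptor for damaged DNA, had 832 and 896 counts in the controls against 867 and 732 in AP1AR-DT_OE, and the groups overlapped. Normalized means were 819 ± 181 and 839 ± 159 (SD, n = 2), with a Log2FC of 0.03, an SE of 0.47 and a 95% interval from -0.88 to 0.95 (DESeq2 adjusted p = 1). Within numbers 1 and 2 the log2 ratios were 0.01 and 0.07. Without control 2 the Log2FC was -0.17, and without AP1AR-DT_OE 1 it was -0.18.

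DET1 (ENSG00000140543, chr15:88494440-88546681, minus strand), which gives DDA1 part of its name, had 182 and 231 counts in the controls against 163 and 219 in AP1AR-DT_OE. Controls lay at 207.3 and 178.2 normalized counts against 178.8 and 217.4 for AP1AR-DT_OE, so the groups overlapped. With the GC correction the controls lay further apart, at 277.8 and 130.7, on either side of 222.0 and 186.2 in AP1AR-DT_OE, and the Log2FC was 0.01. Normalized means were 193 ± 20.6 and 198 ± 27.3 (SD, n = 2), with a Log2FC of 0.04, an SE of 0.54 and a 95% interval from -1.02 to 1.10 (DESeq2 adjusted p = 1). Its direction turned without control 2 (-0.05) and without AP1AR-DT_OE 2 (-0.12). The DET1 annotation shares exon sequence on the same strand with RP11-97O12.7, a gene with 0 or 1 count in each library.

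The cullin scaffolds had unlike patterns over the libraries, and neither was called. CUL4A (ENSG00000139842, chr13:113208193-113267108, plus strand) had 206 counts in control 1 and 1338 in control 2, against 221 in AP1AR-DT_OE 1 and 201 in AP1AR-DT_OE 2. Control 2 stood above the other libraries, and control 1 was like the AP1AR-DT_OE libraries. Normalized means were 633 ± 564 in control against 221 ± 30.3 in AP1AR-DT_OE (SD, n = 2), and the Log2FC was -1.52 with an SE of 0.65 and a 95% interval from -2.79 to -0.25 (DESeq2 adjusted p = 1). Within number 1 the log2 ratio was 0.05, and within number 2 it was -2.37. The direction therefore rests on control 2: without that library the Log2FC was -0.08, and without control 1 it was -2.22 with a DESeq2 adjusted p of 0.003752. With the GC correction control 2 was still highest, at 783.9 normalized counts against 305.5 in control 1 and 292.8 and 174.6 in AP1AR-DT_OE, and the Log2FC was -1.23.

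CUL4B (ENSG00000158290, chrX:120505920-120604074, minus strand) had 312 and 977 counts in controls 1 and 2 and 345 and 686 in AP1AR-DT_OE 1 and 2. Both libraries numbered 2 were higher than both numbered 1, whatever the group, and the groups overlapped. Normalized means were 555 ± 282 and 530 ± 214 (SD, n = 2), with a Log2FC of -0.07, an SE of 0.55 and a 95% interval from -1.15 to 1.02 (DESeq2 adjusted p = 1). CUL4B has the lowest GC content of the 7 members, 38.5%, and with the GC correction its 4 libraries drew together at 528.5 and 491.2 in control and 509.1 and 546.0 in AP1AR-DT_OE. The Log2FC was then 0.05. Without control 2 it was 0.59, and without AP1AR-DT_OE 1 it was 0.29.

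RBX1 (ENSG00000100387, chr22:40951347-40973309, plus strand), the RING subunit shared by most cullin ligases, was scarce in this table, with 0 counts in control 1, 46 in control 2, and 44 and 55 in AP1AR-DT_OE 1 and 2. The AP1AR-DT_OE libraries were above both controls, though control 2 was close to them. A read pair was worth about 4 counts here, so 0 counts allows up to 12 counts, and counts of this size stand for few read pairs (counting error only). With control 1 set at that limit, RBX1 was 3.53-fold higher in AP1AR-DT_OE 1, with no allowance for counting error in its 44 counts. It was 1.54-fold higher in AP1AR-DT_OE 2 than in control 2. Normalized means were 17.7 ± 25.1 and 51.4 ± 4.47 (SD, n = 2), with a Log2FC of 1.52, an SE of 1.27 and a 95% interval from -0.98 to 4.01 (DESeq2 adjusted p = 1). The fitted value depends on the library at 0: it was 0.53 without control 1 and 7.95 without control 2, and a fit blocked on replicate number gave 3.06, which passed an unadjusted p under 0.05 (adjusted p = 1). With the GC correction RBX1 was at 0 and 26.97 normalized counts in the controls and at 58.26 and 47.80 in AP1AR-DT_OE, a Log2FC of 1.92 (DESeq2 adjusted p = 1). RNF7, the RING protein that serves CUL5, was more abundant per transcript length than RBX1, at 32.3 ± 19.4 in control against 0.820 ± 1.16 (SD, n = 2).

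Levels of different genes were compared as counts per kilobase of the longest annotated transcript, scaled to a sum of 1000000 over the 23954 genes with a length. On this scale DDA1 was at 17.0 and 8.35 in controls 1 and 2 and at 96.4 and 77.5 in AP1AR-DT_OE 1 and 2. DDB1 was at 95.8 and 65.4 in the controls against 91.7 and 70.2 in AP1AR-DT_OE. DDA1 was thus well below DDB1 in each control and level with it in each AP1AR-DT_OE library, where the 2 means, 87.0 ± 13.4 and 81.0 ± 15.2 (SD, n = 2), did not differ beyond their spread.

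**Figure D2:**
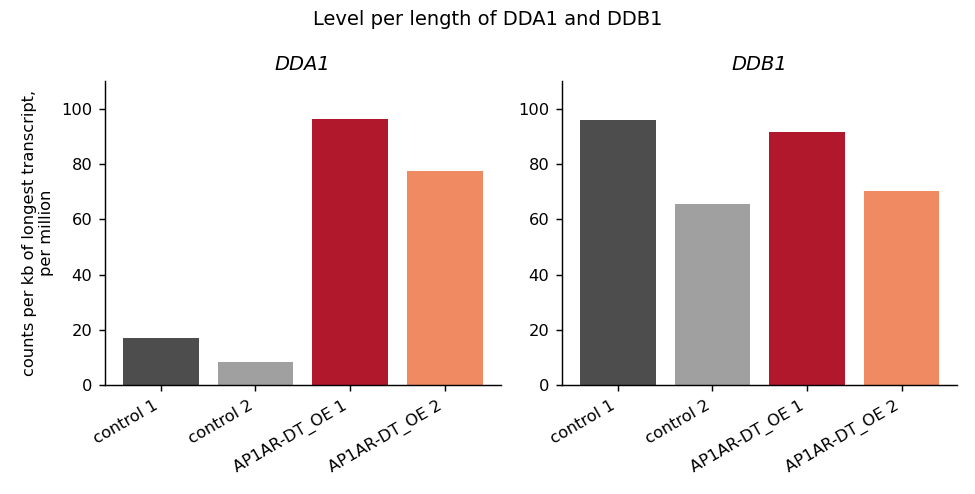
Level per length (counts per kilobase of the longest transcript, scaled to a sum of 1000000) of DDA1 and DDB1, 1 bar per library, with controls in grey and AP1AR-DT_OE in red and orange. The DDA1 bars go from 17.0 and 8.35 to 96.4 and 77.5, while the DDB1 bars stay between 65.4 and 95.8.

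In the controls the order of mean levels per length was DDB1 (80.6 ± 21.5), DDB2 (20.8 ± 2.10), DDA1 (12.7 ± 6.13), CUL4A (9.13 ± 8.77), DET1 (3.97 ± 0.0581), CUL4B (1.90 ± 1.16) and RBX1 (0.820 ± 1.16; SD, n = 2 for each). The SD range of DDA1 overlapped those of DDB2 above it and CUL4A below it. So did the ranges of CUL4A and DET1, and those of CUL4B and RBX1. DDB2 was nonetheless above DDA1 in both controls, at 22.2 and 19.3 against 17.0 and 8.35. In AP1AR-DT_OE DDA1 stood with DDB1 at the head of the list, followed by DDB2 at 20.6 ± 2.93, DET1 at 3.95 ± 0.730, CUL4A at 2.89 ± 0.261, RBX1 at 2.11 ± 0.283 and CUL4B at 1.70 ± 0.761 (SD, n = 2). The last 2 did not differ beyond their spread. The place of CUL4B depends on the transcript taken: its longest is 24020 bases and its MANE Select transcript 5915 bases. With the latter its control level was 7.03. Other places depend on it too. With MANE Select transcripts in AP1AR-DT_OE, RBX1 (3.07 ± 0.416) was above CUL4A (2.64 ± 0.235). There CUL4B (6.30 ± 2.82) was above DET1 (6.09 ± 1.13), and neither pair differed beyond the spread (SD, n = 2). In the controls DDB2 was then at 32.4 ± 3.19 and DDA1 at 11.6 ± 5.57.

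The ratio of DDA1 to DDB1 per length was 0.178 and 0.128 in controls 1 and 2 and 1.05 and 1.10 in AP1AR-DT_OE 1 and 2. Libraries of a group lay closer to each other in this ratio than in the DDA1 level itself. With MANE Select transcripts, a choice made after the data were seen, the ratio was 0.153 and 0.110 in the controls against 0.907 and 0.952 in AP1AR-DT_OE. The union of exons, which is longer for DDB1, gave 0.493 and 0.355 against 2.92 and 3.06, so whether DDA1 passed DDB1 depends on the length used. The fold between groups cannot change with the length, because a length scales the ratio alike in every library. The ratio of DDA1 to DET1, per longest transcript, was 4.34 and 2.08 in the controls against 28.1 and 17.3 in AP1AR-DT_OE.

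The CUL4A to CUL4B ratio per longest transcript was 2.73 in control 1, 5.65 in control 2, 2.64 in AP1AR-DT_OE 1 and 1.21 in AP1AR-DT_OE 2. Libraries numbered 1 were alike and those numbered 2 lay on either side of them. With MANE Select transcripts the 4 ratios were 0.671, 1.39, 0.651 and 0.298, so CUL4A led under both lengths in control 2 alone, and in the other libraries the cullin that led changed with the transcript.

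Taking all 6 partners as 1 reference, the log2 of the DDA1 normalized count minus the mean over the partners (pseudocount 1) was 2.12 and -0.31 in controls 1 and 2 and 3.69 and 3.25 in AP1AR-DT_OE 1 and 2. The difference between group means, 0.90 ± 1.72 and 3.47 ± 0.31 (SD, n = 2), was 2.56. RBX1 has no count in control 1, which raises the value of that library on this scale: with the 5 other partners, a set chosen after the data were seen, the values were 0.56 and -1.06 against 3.07 and 2.67, a difference of 3.12. Without control 2 the difference over 6 partners was 1.35, and without control 1 it was 3.78. Relative to DDB1 alone the 4 values were -2.77, -3.25, -0.21 and -0.14, a difference of 2.84, with the least spread within groups. The summed normalized counts of the 6 partners were 8217 and 6409 in the controls against 7905 and 6251 in AP1AR-DT_OE, and DDB1 made up 58.0% to 78.8% of them.

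Genes beside DDA1 were examined because the table counts genes that overlap on opposite strands and the strand setting of the counting is not stated. DDA1 shares 719 bases of its span with ABHD8 at its start and 76 bases with ANO8 at its end, both on the minus strand. ABHD8 had 2150 and 1859 counts in the controls against 1915 and 1601 in AP1AR-DT_OE (Log2FC -0.07, SE 0.48). ANO8, an anoctamin family gene, had 1377 and 1187 against 1000 and 1183 (Log2FC -0.13, SE 0.47). Neither overlapping gene showed the DDA1 pattern, although reads within the shared bases cannot be assigned.

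On the same strand MRPL34, a mitochondrial ribosomal protein gene ending 2675 bases before DDA1, had 1800 and 2822 counts in the controls against 1785 and 2366 in AP1AR-DT_OE (Log2FC 0.03). GTPBP3, a mitochondrial tRNA modification enzyme whose gene starts 11622 bases beyond DDA1, had 1830 and 1185 against 1813 and 1422 (Log2FC 0.18). Of the 11 genes within 100 kb with a mean of at least 50 normalized counts, none was called and none passed an unadjusted p under 0.05, in DESeq2 or in the edgeR quasi-likelihood test, and their Log2FC ranged from -0.13 to 0.30.

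**Figure D3:**
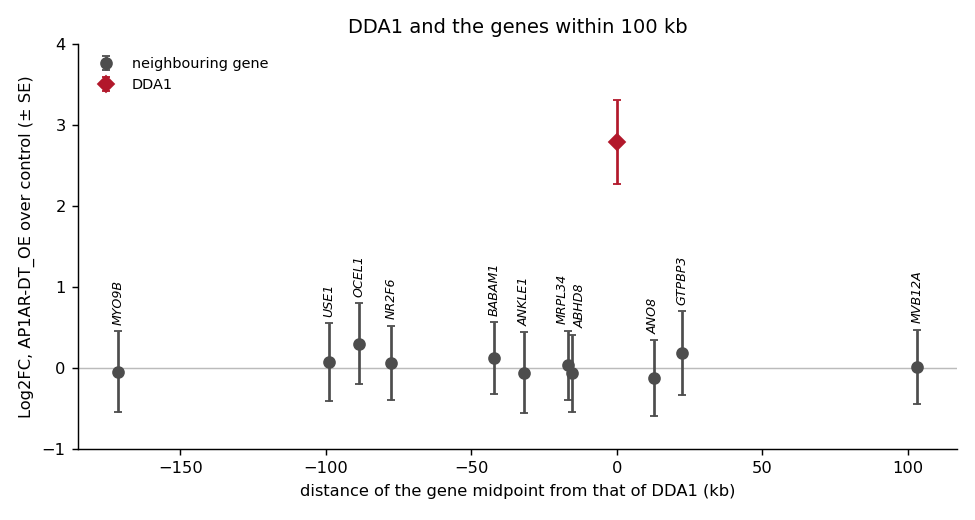
Log2FC of AP1AR-DT_OE over control (points, with SE bars from DESeq2) for DDA1 and the 11 genes within 100 kb, placed by the distance of each gene's midpoint from that of DDA1 in kb. DDA1 is at 2.79, and its neighbours lie between -0.13 and 0.30.

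Other members also overlap genes of the table. DAK, which shares 9377 bases of span with DDB1, had 1591 and 1429 counts in the controls against 1766 and 1267 in AP1AR-DT_OE. PCID2, which shares 523 bases with CUL4A, had 287 and 604 against 386 and 628 counts, higher in both libraries numbered 2 and so without the CUL4A pattern. MCTS1, which shares 10065 bases with CUL4B, had 87 and 203 against 98 and 232 counts, following the numbers as CUL4B did. RP11-17G12.2, inside the DDB2 span, had 4 or 5 counts in every library.

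The genes whose pattern over the 4 libraries was most like that of DDA1 were found among 13297 genes by Euclidean distance of log2 normalized counts centred on the gene mean, where the median distance was 3.10. FBXL8, which encodes an F-box protein, was nearest at 0.36, with 76 and 58 counts in the controls against 413 and 436 in AP1AR-DT_OE. PDDC1 followed at 0.66 with 792 and 561 against 3191 and 2626 counts, and PPIF, the mitochondrial cyclophilin, at 0.76 with 469 and 498 against 4989 and 4354. RP11-977G19.10 (20 and 20 against 185 and 85 counts) and MRPS18A, a mitochondrial ribosomal protein gene (105 and 128 against 658 and 543 counts), were both at 0.81. All 5 were higher in both AP1AR-DT_OE libraries, which follows from picking them by likeness to DDA1. Within a distance of 1 of DDA1 lay 8 genes in all.

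The wider cullin ligase pathway was read through 78 genes in 6 lists. None of the 78 was called in DESeq2 and none passed an unadjusted p under 0.05, beside 0.137% and 0.816% over all genes, and the edgeR quasi-likelihood test gave 0 and 0 as well. Leaving out control 1 called 2 of them, COPS6 and MYEOV2, described with their list. Of the 75 with a mean of at least 50 normalized counts, 5 (CUL5, UBE2F, DCUN1D2, MYEOV2 and UBE2E2) had groups that did not overlap, beside 9.45% over all genes. List medians lay between -0.07 and 0.04, beside -0.031 over all genes.

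The 26 substrate receptors, the proteins that dock on DDB1 and choose targets, had 14 values above 0 and 12 below, with a median Log2FC of 0.01. Of the 25 with a mean of at least 50 normalized counts, the ends were CRBN, the cereblon receptor bound by thalidomide drugs (31 and 218 counts in control, 46 and 102 in AP1AR-DT_OE, Log2FC -0.43, SE 0.82), and BRWD1 (26 and 139 against 39 and 227 counts, Log2FC 0.97, SE 0.86). DCAF13 was at -0.40 and TRPC4AP at 0.23. ERCC8, under that mean and named after its values were seen, was lower still (38 and 107 against 30 and 35 counts, Log2FC -0.90, SE 0.82). CRBN and BRWD1 were each higher in the libraries numbered 2, so their spread within groups exceeded the difference between them.

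Of 10 other cullins, RING proteins and adaptors, 2 were above 0 and 8 below, with a median of -0.07. CUL5, the scaffold of SOCS-box ligases, was lowest, with 157 and 391 counts in the controls against 148 and 169 in AP1AR-DT_OE (Log2FC -0.54, SE 0.56). CUL9 was at -0.17, SKP1, the adaptor of CUL1 ligases, at 0.13 and RNF7 at 0.29.

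Among 13 genes of NEDD8 conjugation and cullin exchange, which switch cullins on and swap their receptors, 8 were above 0 and 5 below, with a median of 0.01. UBE2F, a NEDD8-conjugating enzyme, had 201 and 437 counts in the controls against 360 and 485 in AP1AR-DT_OE (Log2FC 0.63, SE 0.51). DCUN1D2 was at 0.29, DCUN1D1 at -0.27 and DCUN1D4 at -0.29.

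The 10 genes of the COP9 signalosome, which removes NEDD8 from cullins, had 6 values above 0 and 4 below, with a median of 0.04, and held the highest Log2FC of the 6 lists. MYEOV2, the older symbol of COPS9, had 616 counts in control 1 and 75 in control 2, and 712 and 849 in AP1AR-DT_OE (Log2FC 1.10, SE 1.42). COPS6 had 1283 and 377 counts in the controls against 1266 and 1398 in AP1AR-DT_OE (Log2FC 0.67, SE 0.64). Both were low in control 2 alone, the library in which CUL4A was high. Without control 1 their DESeq2 Log2FC were 3.81 (adjusted p = 1.517e-10) and 2.25 (adjusted p = 0.0002213). COPS8 was at -0.14 and COPS4 at -0.23.

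The 9 ubiquitin-conjugating (E2) enzymes of cullin ligases split into 4 above 0 and 5 below, with a median of -0.01. UBE2D1 and UBE2E1 were both at -0.39, UBE2R2 at 0.13 and UBE2E2 at 0.18. The 10 genes that encode known substrates, read here only as RNA, gave 5 and 5 with a median of -0.01. JUN, a substrate of the DET1 and COP1 ligase, had 11637 and 29194 counts in the controls against 11454 and 17011 in AP1AR-DT_OE (Log2FC -0.28), and ETV1, another, was at -0.29. CDT1, the replication licensing factor, was at 0.11, and ETV4 at 0.18. Protein levels of these substrates were not measured.

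**Figure D4:**
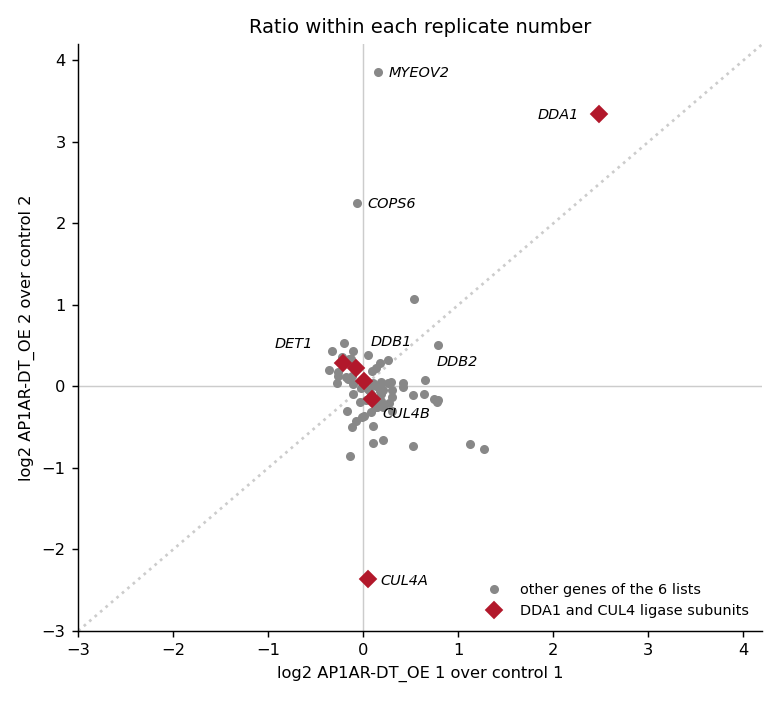
Log2 ratio of AP1AR-DT_OE over control within number 2 (vertical axis) against that within number 1 (horizontal axis) for 6 of the 7 members (red diamonds, without RBX1, which has no count in control 1) and 73 other genes of the 6 lists (grey points); the dotted line marks equal ratios. DDA1, at 2.48 and 3.34, is far from 0 on both axes, while CUL4A (0.05 and -2.37), COPS6 and MYEOV2 are far from 0 within number 2 alone.

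Within replicate numbers DDB1, DDB2, DET1 and CUL4B stayed within 0.3 of 0 on the log2 scale. The DDA1 log2 ratio was 2.48 within number 1 and 3.34 within number 2. Those of DDB1 were -0.08 and 0.23, those of DET1 -0.21 and 0.29, and those of CUL4B 0.09 and -0.15. The state markers gave no called gene either: the 7 measured adrenergic markers had a median Log2FC of 0.02, with PHOX2A at 0.11, DBH at 0.23, GATA3 at -0.04 and ISL1 at -0.07. The 7 mesenchymal markers had a median of -0.13, with 2 above 0 (VIM at 0.12 and FN1 at 0.06) and 5 below. The lowest were SNAI2 at -0.41 and PRRX1 at -2.02. PRRX1 had 2432 and 14724 counts in the controls against 1131 and 2263 in AP1AR-DT_OE (DESeq2 adjusted p = 0.431). PRRX1 was called with the GC correction and with the replicate block in DESeq2. With both together, and in edgeR with the block, 1 of the 14 markers was called. Like CUL4A, PRRX1 was highest in control 2. Its log2 ratios within numbers 1 and 2 were -1.16 and -2.34, and its groups did not overlap, unlike those of CUL4A. The link of PRRX1 to the CUL4A values was not tested. Summed normalized counts of the adrenergic list ran from 24070 to 29790 in the controls and from 26350 to 28650 in AP1AR-DT_OE. Those of the mesenchymal list ran from 113400 to 148900 and from 121600 to 144000, so the groups overlapped in both sums. VIM alone had a control mean of 80500 normalized counts, so the mesenchymal sum says little of the less abundant markers.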

How the data were processed

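RNA from 2 control and 2 AP1AR-DT_OE SK-N-SH libraries was sequenced as paired-end reads. The authors aligned them to hg19 with HISAT2 and derived the deposited counts with StringTie's Python script, per the paper's methods; the submitters' processing notes instead list TopHat2 2.0.4, SAMtools, HTSeq, Cuffdiff and edgeR 2.6.12. Deposited counts are whole numbers without normalization. Low values piled up at 4 (3287 entries, against 2136 at 3 and 1509 at 5), so the limit for an observation of 0 was 3 read pairs, or 12 counts. The table also holds the authors' DESeq2 and edgeR comparisons, which were not used, and GRCh38 positions, printed as given. Strand, lengths, GC content and exon overlap came from GENCODE v44 mapped to GRCh37.

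Counts were fitted over all 24014 genes with DESeq2 1.42.0 in R 4.3.3 (two-sided Wald test, no covariate, Benjamini-Hochberg adjustment, called at an adjusted p under 0.05), and the procedure was tested on simulated data, where it made more false calls than the nominal rate. Intervals of 95% are normal intervals from the SE. Alternatives were edgeR 4.0.16 (quasi-likelihood, TMM factors, filterByExpr), TMM factors in DESeq2, a filter of 10 counts in 2 libraries, no independent filtering, the replicate block, a lowess GC correction (span 0.3) with and without the block, counts divided by 4, overlapping genes summed, and each library left out.

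The members and lists were chosen with earlier results of these data known. Named genes were the members, AP1AR-DT, overlapping and nearest genes, the 2 highest and 2 lowest Log2FC of each list among genes whose mean reached 50 normalized counts, and the 5 genes most like DDA1.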

Additional observations from a re-analysis of the deposited data

How the results depend on the processing

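Over 10 alternatives of fitting, the DDA1 Log2FC lay between 2.79 and 2.91, and no partner was called (lowest adjusted p 0.9998); leaving out 1 library gave 2.30 to 3.57. The direction of CUL4B turned to 0.05 under the GC correction and to 0.05 under the GC correction with the replicate block. With 1 library left out, where a lone library is assumed to vary like the other group, Log2FC ranged from -0.29 to 0.49 for DDB1, from -0.18 to 0.28 for DDB2, from -2.22 to -0.08 for CUL4A, from -0.57 to 0.59 for CUL4B, from 0.53 to 7.95 for RBX1 and from -0.12 to 0.17 for DET1. The 33 calls over all genes became 0 by edgeR's quasi-likelihood method (112 passed 0.05 before adjustment), 55 with the GC correction, 59 with the GC correction and replicate block (19 of them among the 33), 15 with counts divided by 4 and 14 with overlapping genes summed, and 45 to 90 with 1 library left out; the cause was not tested. With the replicate block alone 37 genes were called (16 among the 33), and edgeR with the block called 44 (24 among the 33). In DESeq2 with the block the DDA1 Log2FC was 2.91 and no partner's call changed; edgeR with the block called none of the 6 partners or the 78 list genes, and 2 and 4 of them passed 0.05 before adjustment. Labels do not say that a number marks a batch: deviations of same-numbered libraries correlated at 0.409 over 16820 genes, and with 2 numbers this does not establish a pairing. Control levels per length moved with the union of exons (DDB1 29.3, DDB2 15.2, DET1 2.54) and with the MANE Select transcript (DDB2 32.4, CUL4B 7.03, DET1 6.12). With 2 libraries a group, partner changes inside the intervals given were not detectable.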
